A study of Homo sapiens with 24 samples.

Results

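The genes described here are 10 keratins of squamous epithelium: KRT5, KRT6A, KRT6B, KRT6C, KRT13, KRT14, KRT15, KRT16, KRT17 and KRT19. They were taken from the deposited expression table by exact gene symbol, as 10 of its 61251 genes, and the list was drawn up with earlier results of these data known. All 10 passed the filter on low values, under which a gene was tested if 1 group or more averaged 1 FPKM (fragments scaled to exon length and to the number of mapped reads) or above. The study sequenced RNA of KYSE450 cells, an established line from a human squamous cell carcinoma of the oesophagus, as 24 libraries in 4 groups of 6. The groups were the drug tolerant persister (DTP) state of the chemoresistant line (titled KYSE450DDP-DTP), the chemoresistant line itself (titled KYSE450DDP), the DTP state of the parental line, and the parental line. All 4 groups were labelled wild type in genotype and untreated, and all were grown in RPMI-1640 medium with foetal bovine serum. The labels name neither the drug behind the resistant and DTP states nor its dose or duration, do not explain "DDP", and do not tell whether the 6 libraries per group stem from separate cultures. The p-values below therefore measure the spread between libraries, which may be technical.

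Library totals ran between 14947379 and 37989457 reads. All 14 listed markers of squamous epithelium, 10 of them the keratins themselves, averaged 1 FPKM or more in 1 group or more, and their summed level in a library was 5156 to 5736 FPKM in chemoresistant DTP, 4698 to 5513 in chemoresistant, 3096 to 3801 in parental DTP and 5133 to 5696 in parental libraries. None of 6 glandular and none of 3 endothelial markers reached that level, while 4 of 6 fibroblast markers and 1 of 5 leukocyte markers (LYZ) did, and CD3E was at 0 in every library. The fibroblast markers summed to 2.70 to 14.2 FPKM in chemoresistant DTP, 4.37 to 19.2 in chemoresistant, 1.42 to 5.78 in parental DTP and 2.76 to 7.38 in parental libraries. Libraries stood apart within every group by the chi-square per degree of freedom between pairs of libraries. Chemoresistant DTP library 2 stood furthest apart, at 53.7 to 77.9 in every pair that held it and 2.64 to 11.5 among the other 5. Pairs that held parental DTP library 5 or 6 were at 20.02 to 42.96, and the other pairs of that group at 2.32 to 12.8. Parental libraries 5 and 6 were at 3.15 to each other and at 16.2 to 26.6 to libraries 1 to 4, which were at 3.43 to 7.89 among themselves. Chemoresistant libraries 1 and 4 were at 3.37 to each other, and libraries 2 and 3 at 4.93. Library 1 or 4 paired with library 2 or 3 gave 15.9 to 32.3. Without chemoresistant DTP library 2, 5 keratins were called in chemoresistant DTP against chemoresistant, 9 in chemoresistant DTP against parental DTP and 8 in the test of unequal DTP change described below. With all 24 libraries, 48.0%, 61.9% and 63.8% of all tested genes were called in these tests. The shares without library 2 are not given here.

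Keratins build the intermediate filaments of epithelial cells, and a filament needs a type II keratin paired with a type I keratin. Basal cells of stratified squamous epithelia use KRT5 with KRT14, suprabasal cells of the oesophagus use KRT4 with KRT13, and wounded, stressed or hyperproliferative epithelium adds KRT6A, KRT6B and KRT6C with KRT16 and KRT17. KRT15 is a type I keratin of basal cells, and KRT19, the smallest keratin, is found in simple epithelia and in some basal cells. The 4 type II members lie on chromosome 12 and the 6 type I members on chromosome 17, all on the minus strand.

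The 3 keratin 6 genes are shown first, because how well reads can be told apart between them sets what can be said of each. Their coding sequences (GENCODE 29, GRCh38) are 1692 bases long and differ at 51 positions, and the longest run with no difference is 269 bases. KRT6A is 97.52% identical to KRT6B and 97.93% to KRT6C, and KRT6B is 98.52% identical to KRT6C. Of all 100-base stretches of KRT6A, 23.4% occur unchanged in KRT6C and 13.7% in KRT6B, and of those of KRT6B 31.6% occur in KRT6C. The 60 coding bases in which they differ most, coding positions 663 to 722, hold 9 of the 51 differences, in capitals below; the stretches lie at chr12:52491555-52491614 (KRT6A), chr12:52450439-52450498 (KRT6B) and chr12:52472099-52472158 (KRT6C), all on the minus strand and printed 5′ to 3′.
KRT6A: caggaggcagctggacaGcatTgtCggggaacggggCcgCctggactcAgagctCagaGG
KRT6B: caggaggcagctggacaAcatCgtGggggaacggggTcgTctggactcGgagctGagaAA
KRT6C: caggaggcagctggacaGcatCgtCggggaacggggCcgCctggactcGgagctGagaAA
Within the coding sequence, each gene of the 3 can be recognised only by reads that cover such positions, and how the authors treated reads that matched several genes is not given in the sources used here. For this reason their sum is reported beside each gene. KRT14 and KRT16 share less: they are 85.53% identical, and 4.5% of 100-base stretches of KRT14 occur in KRT16.

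The members were compared in 4 ways: each DTP state against its own line, the chemoresistant line against the parental one, and the 2 DTP states against each other. A further test asked whether the DTP change was unequal in the 2 lines. Fold changes are on the log2(FPKM + 1) scale, which understates changes of low genes, and p-values are from limma, adjusted by the Benjamini-Hochberg method over all 13729 genes tested, with a call at an adjusted p under 0.05. These comparisons share libraries, so their results are not independent of each other.

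In the parental line, 8 of the 10 keratins fell in the DTP state and none rose by limma (0 also at an unadjusted p under 0.05 and by limma-voom), against a background of 65.5% of all tested genes called, 45.8% higher and 19.7% lower. The median change of the 10 was -0.665 on the log2 scale, and that of all tested genes was 0.14. In the chemoresistant line 2 rose and 2 fell in the DTP state, where 48.0% of all genes were called, 20.5% higher and 27.4% lower; the medians were 0.15 for the keratins and -0.02 for all genes. Between the lines, 4 keratins were higher and 5 lower in chemoresistant than in parental libraries (background 77.5%, of which 48.2% higher and 29.4% lower), with medians of -0.15 for the keratins and 0.14 for all genes. Between the DTP states, 7 were higher and 2 lower in chemoresistant DTP (background 61.9%, of which 29.5% higher and 32.3% lower), with medians of 0.81 and -0.02. Relative log expression factors, which bring the median of all genes to within 0.01 of 0, gave the same directions for every called keratin, while the share of higher calls over all genes changed: 4422 of 8860 called genes were higher in parental DTP under those factors, against 6283 of 8994 as deposited, and 5298 of 10616 were higher in the chemoresistant line, against 6614 of 10645.

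**Figure D1:**
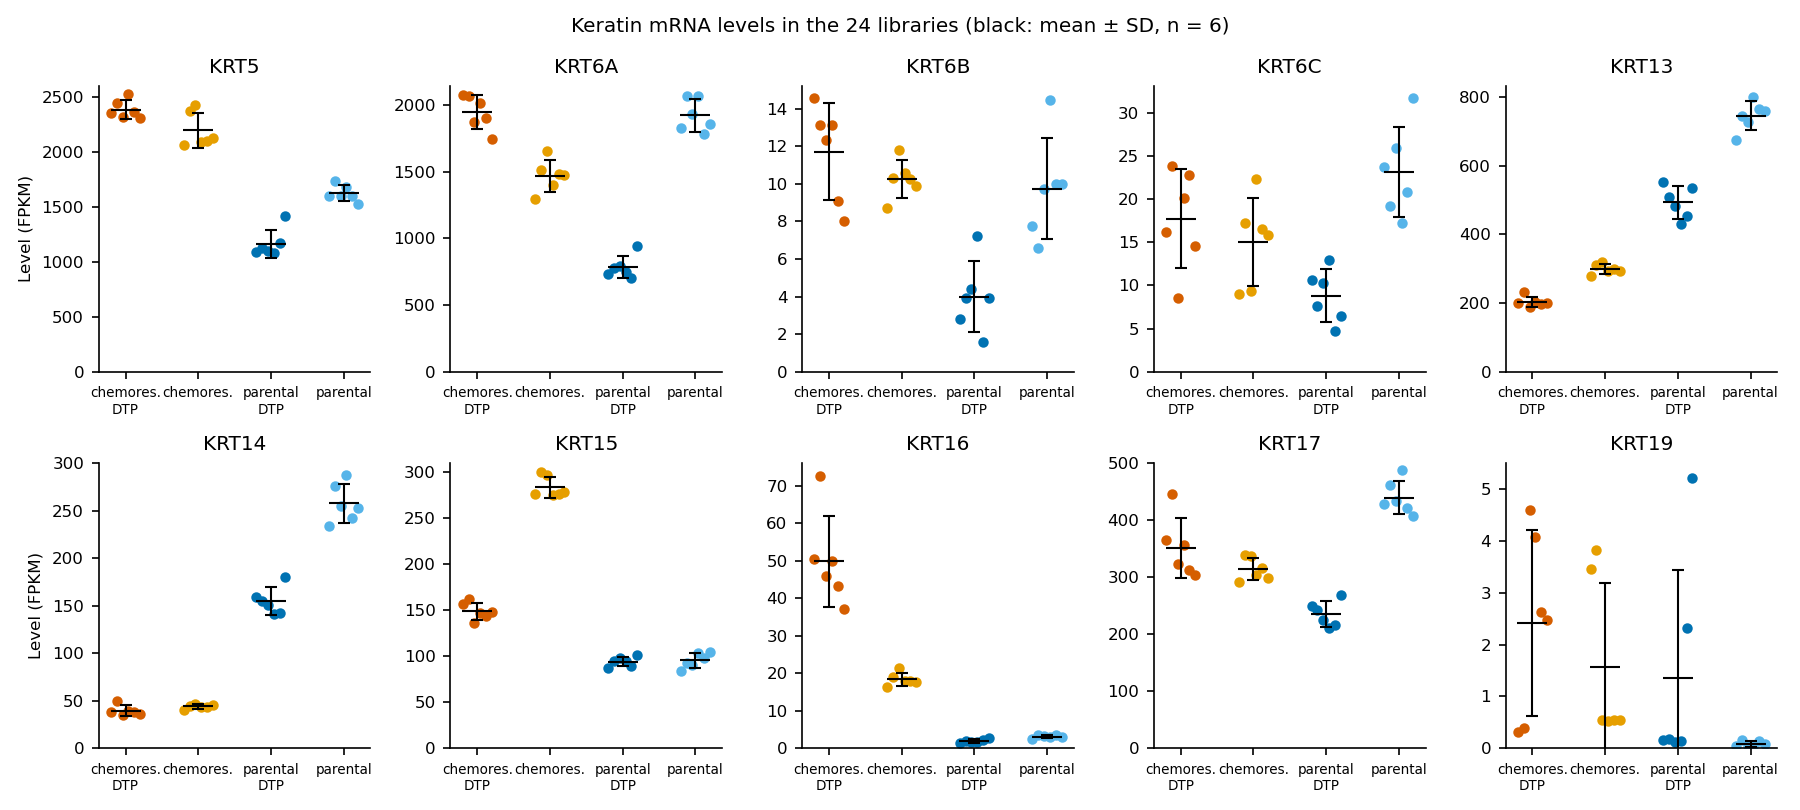
Level of each keratin (vertical axis, FPKM, linear from 0, a scale of its own in each panel) in the 6 libraries of each group (points), with the mean and SD in black; the lower arm of an SD that would pass 0 is not drawn below it. KRT16 reached 37.1 to 72.7 FPKM in chemoresistant DTP and at most 3.51 FPKM in both parental groups, KRT14 was highest in parental libraries, and the KRT19 points split within 3 of the 4 groups.

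KRT5, the type II keratin of basal cells, was the most abundant member by FPKM in 3 of the 4 groups. Its level had a low of 2304, a median of 2354 and a high of 2523 FPKM in chemoresistant DTP, against 2065, 2111 and 2423 in chemoresistant libraries. In parental DTP it had a low of 1077, a median of 1114 and a high of 1413 FPKM, against 1528, 1599 and 1734 in parental libraries. Every chemoresistant and chemoresistant DTP library was above every library of the parental groups, and every parental DTP library was below every parental one, whereas the 2 chemoresistant groups overlapped. KRT5 fell in parental DTP by 0.49 on the log2 scale (SE 0.0605, adjusted p = 1.93e-07) and was higher in chemoresistant than in parental libraries (log2 fold change 0.43, adjusted p = 6.24e-07). It was higher in chemoresistant DTP than in parental DTP, by 1.04 (adjusted p = 2.34e-13), a mean of 2382 ± 84.0 FPKM against 1163 ± 127 (SD, n = 6 each). Its change in chemoresistant DTP was 0.12 (adjusted p = 0.106), with a 95% interval of -0.0045 to 0.246; without parental DTP library 6 the same 0.12 had an SE of 0.0474 and an adjusted p of 0.0393.

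KRT6A, the main wound and stress keratin of type II, fell in the DTP state of the parental line and rose in that of the chemoresistant line. Chemoresistant DTP libraries had a low of 1745, a median of 1960 and a high of 2070 FPKM, against 1297, 1477 and 1656 in chemoresistant libraries. Parental DTP libraries had a low of 701, a median of 763 and a high of 939 FPKM, against 1783, 1896 and 2069 in parental libraries. In each line the DTP libraries did not overlap those of the line itself, while the ranges of chemoresistant DTP and parental libraries did overlap. The log2 fold change was -1.30 in parental DTP (SE 0.0679, adjusted p = 4.98e-14), a linear decrease of 2.46-fold, and 0.41 in chemoresistant DTP (adjusted p = 2.69e-05), an increase of 1.32-fold. KRT6A was lower in chemoresistant than in parental libraries (-0.39, adjusted p = 1.55e-05) and higher in chemoresistant DTP than in parental DTP (1.32, adjusted p = 2.21e-14).

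KRT6B and KRT6C, its close copies, were far lower. KRT6B had a median of 12.7 FPKM in chemoresistant DTP (8.05 to 14.6), 10.3 in chemoresistant (8.72 to 11.8), 3.95 in parental DTP (1.58 to 7.25) and 9.86 in parental libraries (6.57 to 14.5). KRT6C had a median of 18.2 FPKM in chemoresistant DTP (8.60 to 23.8), 16.2 in chemoresistant (9.02 to 22.3), 8.995 in parental DTP (4.74 to 12.96) and 22.3 in parental libraries (17.3 to 31.7). Parental DTP held the lowest libraries of both genes. The coefficient of variation within a group was up to 47.5% for KRT6B and 34.5% for KRT6C, against 6.42% to 10.6% for KRT6A. Only KRT6B in chemoresistant libraries, at 9.82%, lay within that KRT6A range. Both fell in parental DTP, KRT6B by 1.16 (SE 0.199, adjusted p = 1.88e-05) and KRT6C by 1.33 (SE 0.242, adjusted p = 3.93e-05). Neither passed the threshold in chemoresistant DTP, where KRT6B changed by 0.15 (adjusted p = 0.553) and KRT6C by 0.22 (adjusted p = 0.483). KRT6C was lower in chemoresistant than in parental libraries, by -0.63 (adjusted p = 0.0223), a call lost on leaving out chemoresistant library 1 (adjusted p = 0.0664), chemoresistant library 3 (0.0638) or parental library 6 (0.0586); KRT6B differed there by 0.10 (adjusted p = 0.658), and by -0.07 with relative log expression factors.

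Summed, the 3 keratin 6 genes gave medians of 1992 FPKM in chemoresistant DTP, 1503 in chemoresistant, 779 in parental DTP and 1934 in parental libraries. KRT6A made up 97.4% to 99.1% of the sum in every library, so the sum followed it: -1.30 in parental DTP (SE 0.0676, adjusted p = 4.38e-14), 0.40 in chemoresistant DTP (adjusted p = 2.77e-05), -0.39 in chemoresistant against parental (adjusted p = 1.45e-05) and 1.31 in chemoresistant DTP against parental DTP (adjusted p = 2.03e-14). By FPKM, the sum exceeded KRT5 in parental libraries only. Its median ratio to KRT5 was 0.821 in chemoresistant DTP, 0.689 in chemoresistant, 0.693 in parental DTP and 1.22 in parental libraries. The order in parental libraries rests on the exon lengths used. There KRT5 had 119494 to 190569 reads over an implied 4133 bases, and KRT6A 100926 to 150456 reads over 2926 bases. Their coding lengths are 1770 and 1692 bases.

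KRT14, the usual type I partner of KRT5, stood lower in both chemoresistant groups. Chemoresistant DTP libraries had a low of 34.9, a median of 38.2 and a high of 50.4 FPKM, and chemoresistant libraries 39.8, 44.2 and 47.2. Parental DTP libraries had a low of 141, a median of 153 and a high of 180 FPKM, against 234, 254 and 288 in parental libraries. The chemoresistant groups overlapped each other and neither overlapped a parental group. KRT14 was 5.85-fold lower in chemoresistant than in parental libraries on the linear scale (log2 fold change -2.52, SE 0.0744, adjusted p = 1.24e-19) and 3.93-fold lower in chemoresistant DTP than in parental DTP (-1.95, adjusted p = 6.10e-17). It fell in parental DTP by 0.73 (adjusted p = 7.27e-09), and its change in chemoresistant DTP was -0.16 (adjusted p = 0.0718). That last value depended on library 2 of chemoresistant DTP, the highest of its group: without it the change was -0.24 (adjusted p = 0.00258), and without chemoresistant library 1 it was -0.19 (adjusted p = 0.0433).

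KRT5 and KRT14 did not keep a fixed proportion. The ratio of KRT5 to KRT14 in FPKM had a median of 62.8 in chemoresistant DTP (48.5 to 66.3), 49.8 in chemoresistant (46.2 to 53.3), 7.45 in parental DTP (6.82 to 8.18) and 6.28 in parental libraries (5.82 to 6.82). The lowest chemoresistant library was thus above the highest library of either parental group. In bulk RNA, fewer cells of a kind and less RNA per cell cannot be told apart, for this ratio and for every level given here. Levels of different genes were divided by the exon lengths implied by the deposited values, which are 4133 bases for KRT5, 2255 for KRT14 and 5969 for KRT15. A ratio of a single gene to another depends on those lengths, while its fold change between groups does not. For sums of several genes, given below, the lengths act as weights, so changes of their ratios and shares depend on them too.

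KRT16, the type I keratin that pairs with keratin 6 in wounded and hyperproliferative epithelium, differed most between the DTP states among the 10. Chemoresistant DTP libraries had a low of 37.1, a median of 48.0 and a high of 72.7 FPKM, against 16.4, 17.9 and 21.5 in chemoresistant libraries. Parental DTP libraries had a low of 1.44, a median of 1.74 and a high of 2.78 FPKM, against 2.50, 3.13 and 3.51 in parental libraries. Every chemoresistant DTP library was above every chemoresistant one, and these were above every library of the parental groups, which overlapped each other. KRT16 rose in chemoresistant DTP by 1.36 on the log2 scale (SE 0.119, adjusted p = 1.48e-09) and fell in parental DTP by 0.52 (adjusted p = 0.000514). It was higher in chemoresistant than in parental libraries by 2.23 (adjusted p = 1.63e-14), and higher in chemoresistant DTP than in parental DTP by 4.12 (adjusted p = 3.09e-19), a linear ratio of means of 26.2. Without library 2 of chemoresistant DTP, the highest, KRT16 still differed by 1.25 from the chemoresistant line and by 4.00 from parental DTP.

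KRT17, another type I keratin of stressed and basal-like epithelium, took a different course. It had a low of 304, a median of 340 and a high of 445 FPKM in chemoresistant DTP, against 292, 309 and 338 in chemoresistant libraries. In parental DTP it had a low of 211, a median of 233 and a high of 269 FPKM, against 406, 430 and 487 in parental libraries. The 2 chemoresistant groups overlapped, and every parental DTP library was below every library of the other groups. KRT17 fell in parental DTP by 0.90 (SE 0.0776, adjusted p = 4.18e-10) and was lower in chemoresistant than in parental libraries (-0.48, adjusted p = 5.09e-06). It was higher in chemoresistant DTP than in parental DTP (0.57, adjusted p = 8.38e-07), and its change in chemoresistant DTP was 0.15 (adjusted p = 0.115). As a percentage of KRT17, KRT16 had a median of 13.9 in chemoresistant DTP (12.2 to 16.3), 5.80 in chemoresistant (5.62 to 6.39), 0.769 in parental DTP (0.577 to 1.04) and 0.747 in parental libraries (0.584 to 0.820).

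KRT13, the suprabasal type I keratin of the oesophagus, was the 1 member that fell in the DTP state of both lines in the fit over all 24 libraries as deposited; KRT15 did so too with relative log expression factors, and KRT14 without chemoresistant DTP library 2 or chemoresistant library 1. It had a low of 189, a median of 201 and a high of 233 FPKM in chemoresistant DTP, against 279, 297 and 320 in chemoresistant libraries. In parental DTP it had a low of 429, a median of 496 and a high of 551 FPKM, against 675, 752 and 802 in parental libraries. No group overlapped another, with chemoresistant DTP lowest, then chemoresistant, parental DTP and parental. KRT13 fell by 0.55 in chemoresistant DTP (SE 0.0598, adjusted p = 5.13e-08) and by 0.60 in parental DTP (adjusted p = 5.58e-09). It was lower in chemoresistant than in parental libraries by -1.31 (adjusted p = 7.05e-16) and lower in chemoresistant DTP than in parental DTP by -1.27 (adjusted p = 3.95e-15).

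KRT15, the type I keratin of basal cells with no fixed partner of its own, was highest in chemoresistant libraries. Chemoresistant DTP libraries had a low of 136, a median of 147 and a high of 162 FPKM, against 274, 277 and 299 in chemoresistant libraries. Parental DTP libraries had a low of 87.0, a median of 94.2 and a high of 101 FPKM, against 83.9, 95.2 and 105 in parental libraries. The 2 parental groups lay within the same range, and chemoresistant DTP lay between them and the chemoresistant line with no overlap. KRT15 was higher in chemoresistant than in parental libraries by 1.56 (SE 0.0532, adjusted p = 2.14e-18), fell in chemoresistant DTP by 0.93 (adjusted p = 6.64e-13) and was higher in chemoresistant DTP than in parental DTP by 0.66 (adjusted p = 1.28e-10). Its change in parental DTP was -0.02 (adjusted p = 0.767; 95% interval -0.13 to 0.09), but -0.20 with relative log expression factors (adjusted p = 0.00907). The ratio of KRT13 to KRT15 had a median of 1.38 in chemoresistant DTP, 1.07 in chemoresistant, 5.20 in parental DTP and 7.94 in parental libraries.

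KRT19, the keratin of simple epithelia, was the lowest member and varied most within groups. It was at 2.48 to 4.60 FPKM (147 to 267 reads) in chemoresistant DTP libraries 3 to 6, against 0.316 and 0.382 FPKM (15 and 18 reads) in libraries 1 and 2. It was at 3.45 and 3.82 FPKM (192 and 182 reads) in chemoresistant libraries 1 and 2, against 0.526 to 0.555 FPKM in libraries 3 to 6. It was at 2.32 and 5.21 FPKM (183 and 182 reads) in parental DTP libraries 5 and 6, against 0.118 to 0.174 FPKM in libraries 1 to 4. The 6 parental libraries held 2 to 10 reads each, 0.036 to 0.154 FPKM, where 3 reads are worth 0.0445 to 0.077 FPKM. So 8 libraries in 3 groups were above 2 FPKM and the other 16 were below 0.6 FPKM. A group mean of KRT19 therefore describes few of its libraries: 2.41 ± 1.79 FPKM in chemoresistant DTP, 1.58 ± 1.60 in chemoresistant, 1.35 ± 2.08 in parental DTP and 0.0820 ± 0.0562 in parental libraries (SD, n = 6 each). KRT19 was called only in chemoresistant against parental libraries (1.04, SE 0.435, adjusted p = 0.0327), and the call was lost without chemoresistant library 1 (0.84, adjusted p = 0.0886) or library 2 (0.82, adjusted p = 0.0934), with a replicate block (adjusted p = 0.0503) and with no filter on low values (adjusted p = 0.0714). Chemoresistant DTP against parental DTP gave 0.70 (adjusted p = 0.168), but 1.36 (adjusted p = 0.00418) without parental DTP libraries 5 and 6 and 1.05 (adjusted p = 0.0239) without library 6 alone. Parental DTP against parental gave 0.75 (adjusted p = 0.135), but 1.78 (adjusted p = 0.0483) with a pseudocount of 0.1, and chemoresistant DTP against chemoresistant 0.40 (adjusted p = 0.470).

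KLK6, BMP4 and LYZ, chosen after their values were seen because their deviations from the group means were most like those of KRT19, were high in the same 8 libraries. KLK6, a secreted serine protease, was at 1.01 to 1.75 FPKM in chemoresistant DTP libraries 3 to 6 and at 0.0746 and 0.201 FPKM in libraries 1 and 2. It was at 1.66 and 2.01 FPKM in chemoresistant libraries 1 and 2 and at 1.02 and 2.17 FPKM in parental DTP libraries 5 and 6, with at most 6 reads in any other library of those 2 groups. BMP4, a secreted signalling protein, reached 0.904 to 2.02 FPKM in chemoresistant DTP libraries 3 to 6 against 0.111 and 0.240 FPKM in libraries 1 and 2. LYZ, the lysozyme gene, reached 1.35 to 2.53 FPKM in chemoresistant DTP libraries 3 to 6 against 0.0285 and 0.0288 FPKM in libraries 1 and 2, and was also at 0.597 FPKM in chemoresistant library 3, where KRT19 was low. The summed glandular markers, none of which reached a group mean of 1 FPKM, were also highest in those libraries: 1.92 to 3.78 FPKM in chemoresistant DTP libraries 3 to 6 against 0.222 and 0.225 FPKM, 1.63 and 2.02 FPKM in chemoresistant libraries 1 and 2 against 0.528 to 1.04 FPKM, and 1.12 and 2.29 FPKM in parental DTP libraries 5 and 6 against 0.217 to 0.395 FPKM. AKR1C3, an aldo-keto reductase, was not picked by likeness to KRT19 but was added by hand, so it is no independent check of these libraries. It was at 7.56 and 6.07 FPKM in parental DTP libraries 5 and 6. It was at 0.641 to 0.763 FPKM in libraries 1 to 4 of that group. AKR1C3 did not follow the KRT19 split in the chemoresistant groups. It was at 228 and 211 FPKM in chemoresistant libraries 1 and 2, against 206 to 227 FPKM in libraries 3 to 6. Chemoresistant DTP libraries 3 to 6 were at 232 to 254 FPKM of AKR1C3, against 249.5 and 313 FPKM in libraries 1 and 2. The summed fibroblast markers also split within these groups, but in another way. They were at 4.37 to 4.835 FPKM in chemoresistant libraries 1 to 3, against 14.4 to 19.2 FPKM in libraries 4 to 6. In chemoresistant DTP they were at 11.65 to 14.2 FPKM in libraries 1 to 3, against 2.70 to 3.03 FPKM in libraries 4 to 6. Parental DTP libraries 5 and 6 were low, at 1.42 and 1.66 FPKM, against 3.40 to 5.78 FPKM in libraries 1 to 4. The part of other cells in these KRT19 values was not tested.

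**Figure D2:**
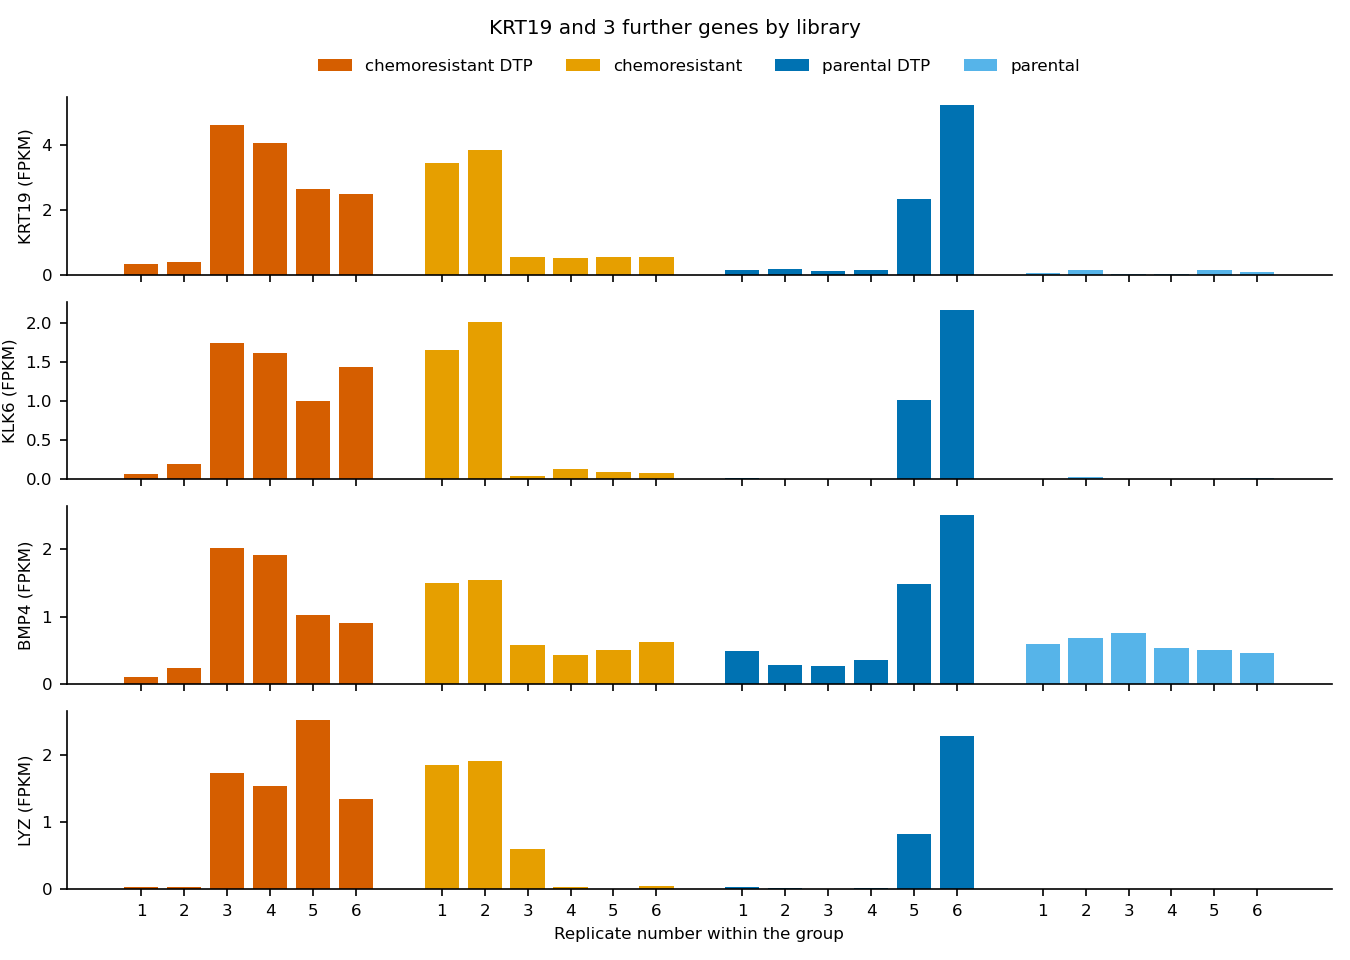
Level of KRT19, KLK6, BMP4 and LYZ (vertical axes, FPKM, from 0) in each of the 24 libraries, ordered by group and replicate number (horizontal axis). The same 8 libraries carry the tall bars of all 4 genes, with LYZ also at 0.597 FPKM in chemoresistant library 3 and BMP4 at 0.469 to 0.757 FPKM in parental libraries.

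The balance between the keratin types by FPKM, where each gene is weighted by the length behind its FPKM, differed between the lines. The 4 type II members summed to a median of 4373 FPKM in chemoresistant DTP (4072 to 4570), 3614 in chemoresistant (3380 to 4101), 1892 in parental DTP (1839 to 2362) and 3511 in parental libraries (3412 to 3829). The 6 type I members summed to a median of 769 FPKM in chemoresistant DTP (726 to 964), 944 in chemoresistant (906 to 1022), 981 in parental DTP (877 to 1093) and 1527 in parental libraries (1424 to 1683). By median, parental DTP was thus lowest in type II keratins and chemoresistant DTP highest, whereas the type I sum was lowest in chemoresistant DTP and highest in parental libraries. As a percentage of the type II sum, the type I sum had a median of 17.7 in chemoresistant DTP (17.2 to 21.2), 26.2 in chemoresistant (24.9 to 26.8), 49.3 in parental DTP (46.3 to 57.0) and 43.4 in parental libraries (41.2 to 44.8), with no overlap between any 2 groups. Together the 10 genes took a median of 1.61% of all FPKM in chemoresistant DTP, 1.44% in chemoresistant, 0.881% in parental DTP and 1.59% in parental libraries.

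**Figure D3:**
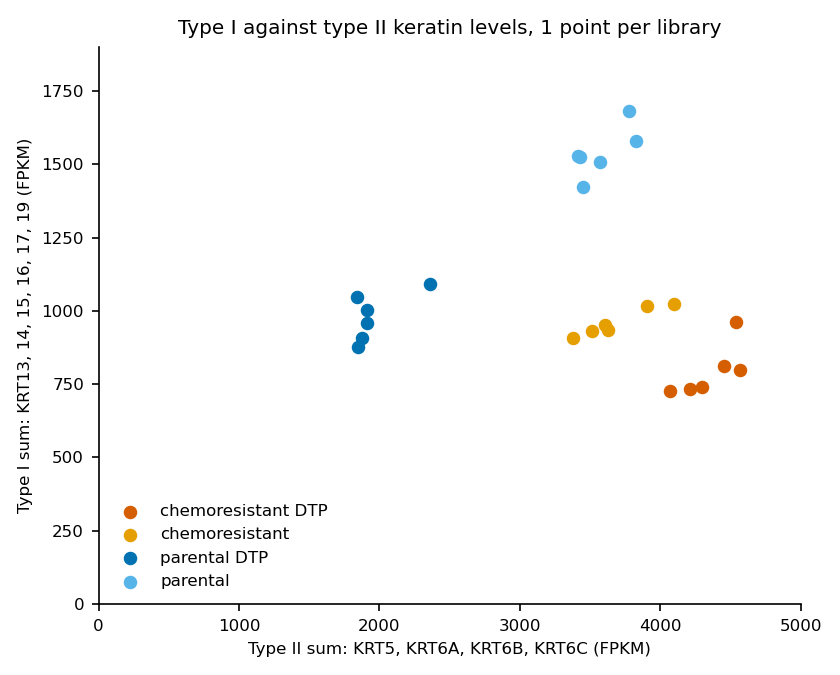
Summed level of the 6 type I keratins (vertical axis, FPKM) against that of the 4 type II keratins (horizontal axis, FPKM), 1 point per library, both axes from 0. Parental libraries lie at the top (1424 to 1683 FPKM of type I), parental DTP at the left (1839 to 2362 FPKM of type II) and chemoresistant DTP at the lower right.

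Within type I, the make-up by FPKM differed between the lines. KRT13 held a median of 25.6% of the type I sum in chemoresistant DTP, 31.4% in chemoresistant, 50.3% in parental DTP and 48.0% in parental libraries. KRT17 held the largest share by FPKM in both chemoresistant groups, with 44.3% in chemoresistant DTP and 32.7% in chemoresistant, against 23.9% in parental DTP and 28.8% in parental libraries. KRT15 held 18.9% in chemoresistant DTP, 29.4% in chemoresistant, 9.62% in parental DTP and 6.04% in parental libraries. The order of KRT15 and KRT17 in chemoresistant libraries rests on the lengths used: KRT15 had 36040 to 43653 reads there over an implied 5969 bases, and KRT17 20623 to 23586 reads over 2996 bases, while their coding lengths are 1368 and 1296 bases. KRT14 held less in the chemoresistant groups, 4.94% in chemoresistant DTP and 4.59% in chemoresistant, against 15.8% in parental DTP and 16.7% in parental libraries. KRT16 held 6.23% in chemoresistant DTP, 1.90% in chemoresistant, 0.185% in parental DTP and 0.206% in parental libraries. Within type II, KRT5 held 54.9% in chemoresistant DTP, 59.2% in chemoresistant, 59.1% in parental DTP and 45.1% in parental libraries, nearly all of the rest being KRT6A.

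**Figure D4:**
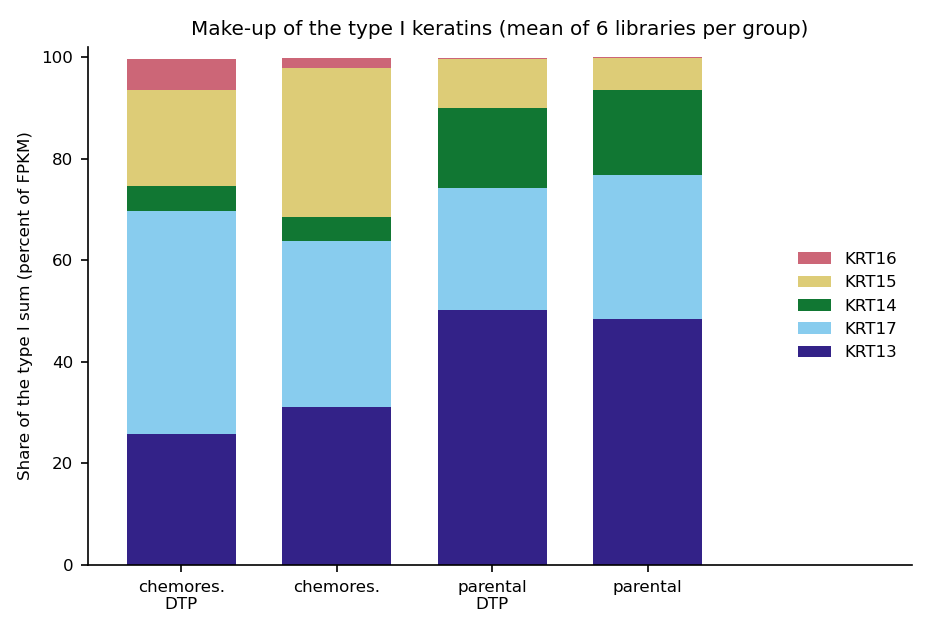
Mean share of each type I keratin in the type I sum (vertical axis, percent of FPKM, stacked from 0; means of 6 libraries) in the 4 groups; KRT19, at under 1%, is not drawn. By FPKM, KRT13 is the largest part in both parental groups and KRT17 in both chemoresistant groups (in chemoresistant libraries this rests on the gene lengths behind the FPKM), and KRT15 is widest in chemoresistant libraries.

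Whether the DTP change differed between the lines was tested directly, as the change in the chemoresistant line minus that in the parental line. Of the 10 keratins, 7 had a higher change in the chemoresistant line and 1 a lower one, against 63.8% of all genes called, 20.5% higher and 43.4% lower. The median of the 10 was 0.83, and that of all genes -0.17. With relative log expression factors 4272 of 8768 called genes were higher, against 2812 of 8764 as deposited, and the same 8 keratins kept their direction. KRT16 differed by 1.89 (SE 0.169, adjusted p = 8.26e-10), KRT6A by 1.71 (adjusted p = 2.39e-13) and the keratin 6 sum by 1.70 (adjusted p = 2.18e-13). KRT6C differed by 1.55 (adjusted p = 0.000369), KRT6B by 1.31 (adjusted p = 0.000266) and KRT17 by 1.05 (adjusted p = 1.16e-08). The stress keratins thus had the 5 largest values. The basal pair differed less, KRT5 by 0.61 (adjusted p = 1.31e-06) and KRT14 by 0.57 (adjusted p = 5.11e-05), and KRT15 went the other way, by -0.91 (adjusted p = 2.29e-10). KRT13 differed by 0.05 (adjusted p = 0.658), with a 95% interval of -0.13 to 0.22, and by 0.26 with relative log expression factors (adjusted p = 0.0369). KRT19 differed by -0.35 (adjusted p = 0.638), with an interval of -1.62 to 0.92.

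**Figure D5:**
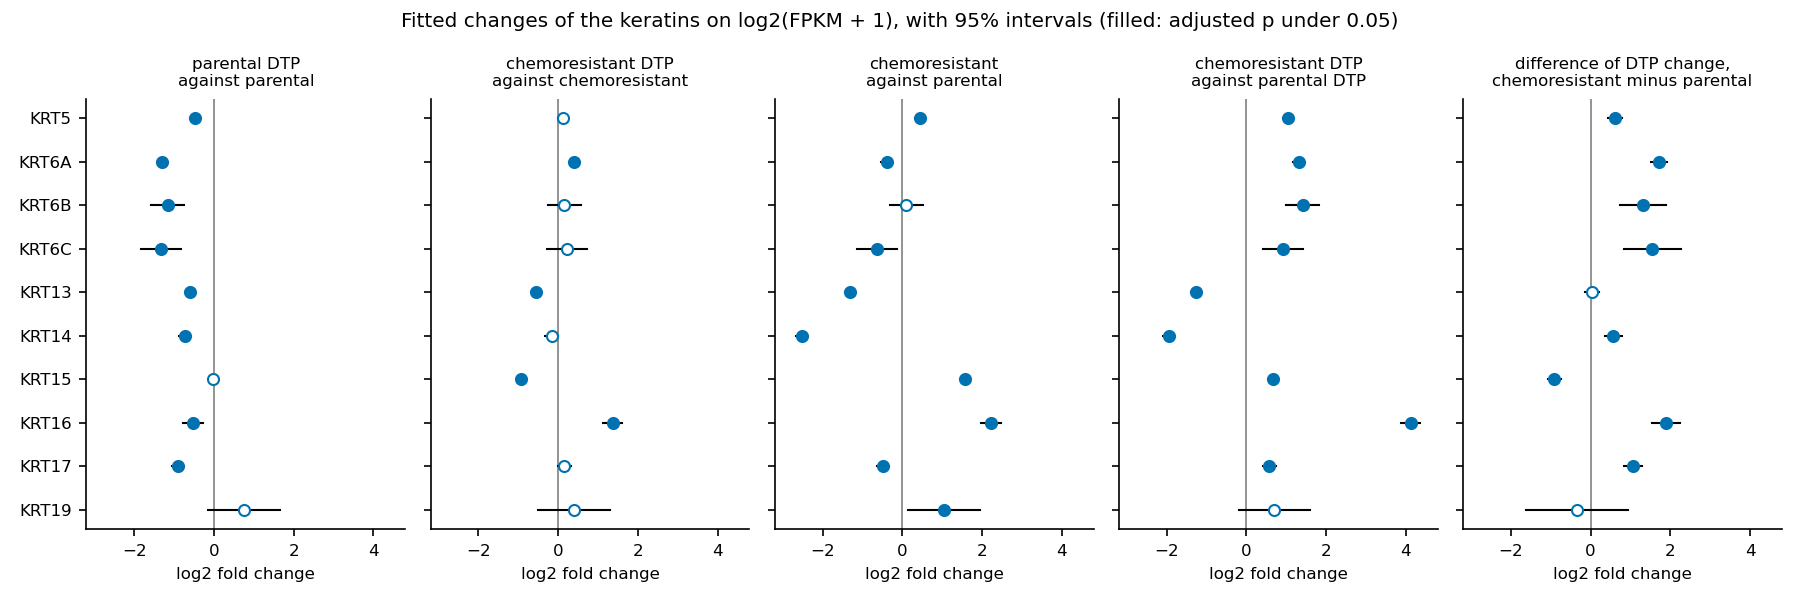
Fitted change of each keratin (horizontal axis, log2 fold change on the log2(FPKM + 1) scale, with 95% intervals) in the 4 comparisons and in the test of unequal DTP change; filled points have an adjusted p under 0.05. In parental DTP 8 filled points lie left of 0, and in the difference panel 7 lie right of 0 and KRT15 left of it.

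Of 23 other epithelial keratins, 6 were tested (KRT4, KRT7, KRT8, KRT10, KRT18 and KRT80). KRT4, the type II partner of KRT13 in the suprabasal oesophagus, averaged 45.9 ± 3.08 FPKM in chemoresistant DTP, 28.1 ± 1.53 in chemoresistant, 4.85 ± 0.536 in parental DTP and 7.67 ± 0.314 in parental libraries (SD, n = 6 each). It was higher in chemoresistant DTP than in parental DTP by 3.01 (adjusted p = 5.83e-23), where KRT13 was lower. KRT8, a type II keratin of simple epithelia, averaged 180 ± 14.8 FPKM in chemoresistant DTP, 254 ± 14.7 in chemoresistant, 193 ± 14.2 in parental DTP and 219 ± 11.0 in parental libraries, and fell in the DTP state of both lines, by 0.50 in the chemoresistant line (adjusted p = 8.06e-08) and by 0.18 in the parental line (adjusted p = 0.0076). KRT18, its type I partner, averaged 186 ± 23.0 FPKM in chemoresistant DTP and 122 ± 11.4 in parental DTP, a difference of 0.60 (adjusted p = 5.49e-08). Of the 6, 3 fell in parental DTP and the rest did not pass (median -0.18; 65.5% of all genes called, 19.7% lower), and in chemoresistant DTP 2 rose and 1 fell (median 0.22; 48.0% of all genes called). In chemoresistant against parental libraries 5 were higher and 1 lower (median 0.47; 77.5% of all genes called, 48.2% higher), and in chemoresistant DTP against parental DTP 4 were higher and the rest did not pass (median 0.68; 61.9% called, 29.5% higher). The test of unequal DTP change gave 2 higher and 1 lower (median 0.21), where 63.8% of all genes were called and 20.5% were higher. KRT4 was at 1.26 there (adjusted p = 1.25e-12), above the 1.05 of KRT17.

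Among 11 proteins that tie keratin filaments to junctions or to each other, 10 were tested. In parental DTP 1 rose and 4 fell (median -0.07), and in chemoresistant DTP 1 rose and 2 fell (median -0.09). Of all genes, 65.5% were called in parental DTP and 48.0% in chemoresistant DTP. PLEC, which encodes plectin, a linker of keratin to hemidesmosomes, fell in parental DTP by 0.84 (adjusted p = 5.42e-07), to 74.5 ± 13.2 FPKM in parental DTP against 134 ± 13.6 in parental libraries. DST, which encodes dystonin, whose epithelial form has the same task, rose there by 0.80 (adjusted p = 1.10e-06), to 9.30 ± 0.604 FPKM against 4.93 ± 0.601. PKP1, which encodes the desmosomal plakophilin 1, fell in chemoresistant DTP by 0.63 (adjusted p = 3.98e-08). In chemoresistant against parental libraries 5 linkers were higher and 5 did not pass, where 77.5% of all genes were called, with EPPK1 (epiplakin, a keratin-binding plakin) at 0.64 (adjusted p = 1.70e-06), and in chemoresistant DTP against parental DTP 5 were higher and 2 lower, where 61.9% of all genes were called.

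Of 8 other intermediate filament genes 5 were tested, and 4 of them fell in parental DTP while 1 did not pass (median -0.59), where 65.5% of all genes were called and 19.7% fell. LMNB1, which encodes lamin B1 of the nuclear envelope, was at 26.7 ± 0.856 FPKM in parental DTP against 60.9 ± 1.80 in parental libraries (-1.16, adjusted p = 1.22e-18). In chemoresistant DTP 1 fell and 4 did not pass, where 48.0% of all genes were called. VIM, which encodes vimentin, the intermediate filament of mesenchymal cells, was higher in chemoresistant than in parental libraries by 1.96 (adjusted p = 5.63e-13) with 5.92 ± 1.29 FPKM in chemoresistant against 0.766 ± 0.193 in parental libraries, and the other 4 tested genes were lower there (77.5% of all genes called, 29.4% lower). In chemoresistant DTP against parental DTP 4 were higher and 1 lower (61.9% called, 29.5% higher). The test of unequal DTP change gave 4 higher, while 1 did not pass (median 0.54), where 63.8% of all genes were called and 20.5% were higher.

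All 18 listed regulators of squamous keratin genes were tested. In parental DTP 12 rose and 3 fell (median 0.29), where 65.5% of all genes were called and 45.8% rose, and in chemoresistant DTP 7 rose and 6 fell (median -0.07), where 48.0% were called. FOSL1, an AP-1 subunit, fell in parental DTP by 1.25 (adjusted p = 4.37e-14) and rose in chemoresistant DTP by 1.14 (adjusted p = 5.76e-13), with 11.1 ± 0.874 FPKM in chemoresistant DTP against 4.49 ± 0.326 in chemoresistant, and 13.2 ± 0.389 in parental DTP against 32.8 ± 3.99 in parental libraries. TP63, which encodes the p63 transcription factor of squamous epithelia, rose in parental DTP by 0.80 (adjusted p = 1.81e-07) and fell in chemoresistant DTP by 0.47 (adjusted p = 0.000383), and SOX2, a transcription factor of the developing oesophagus, rose by 0.88 (adjusted p = 2.50e-11) and fell by 0.66 (adjusted p = 9.26e-09). NFE2L2, which encodes NRF2, rose in parental DTP by 1.08 (adjusted p = 1.89e-11), at 34.4 ± 3.44 FPKM in parental DTP against 15.8 ± 1.78 in parental libraries. In chemoresistant against parental libraries 16 regulators were higher and 2 lower (median 0.82), where 77.5% of all genes were called and 48.2% were higher, led by SOX15, a SOX family transcription factor, at 35.4 ± 1.52 FPKM against 2.20 ± 0.146 (3.51, adjusted p = 9.63e-23). In chemoresistant DTP against parental DTP 13 were higher and 4 lower (median 0.49), where 61.9% of all genes were called and 29.5% were higher. In the test of unequal DTP change 2 were higher and 10 lower (median -0.29; 63.8% of all genes called, 43.4% lower), with FOSL1 at 2.39 (adjusted p = 2.23e-16), SOX2 at -1.54 (adjusted p = 5.96e-13) and TP63 at -1.27 (adjusted p = 2.94e-08).

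For each keratin, the 3 genes with the most similar course over the 24 libraries were found by the root-mean-square difference of log2(FPKM + 1) values, each gene centred on its own mean and with a group mean of at least 5 FPKM. KRT5 was nearest to KEAP1 (0.0885), which encodes the adaptor that marks NRF2 for degradation, at 58.5 FPKM in chemoresistant DTP, 53.6 in chemoresistant, 27.8 in parental DTP and 40.2 in parental libraries. KRT15 was nearest to LGALS3BP (0.0897) and SREBF1 (0.109), KRT17 to HYAL2 (0.101), KRT14 to PDLIM4 (0.157), KRT6A to CA2 (0.157) and KRT13 to PRR7 (0.162). KRT16 was nearest to SPRR2F (0.233) and SPRR1A (0.333), both of which encode small proline-rich proteins of the cornified envelope. SPRR2F was at 28.5 FPKM in chemoresistant DTP, 9.07 in chemoresistant, 0.848 in parental DTP and 1.09 in parental libraries. KRT6B (nearest SDC1, 0.373), KRT6C (YJU2, 0.442) and KRT19 (0.630 to its nearest gene) had no gene as close. These likenesses are descriptions over libraries that fall into 4 groups, and a gene whose group levels differ by similar log2 amounts comes out near.

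Keratin pseudogenes, which can take up reads of their parent genes, were low. Of 20 in the table, 14 were above 0 in any library and none exceeded 0.683 FPKM. The highest by mean over the 24 libraries were KRT16P1 (0.304 FPKM), KRT16P2 (0.204) and KRT17P2 (0.198). In single libraries KRT16P1 reached 0.683 FPKM and KRT16P2 0.664 FPKM. KRT16 itself was at 1.44 to 2.78 FPKM in parental DTP, its lowest group, and at 37.1 to 72.7 FPKM in chemoresistant DTP. How far such reads affect the low KRT16 levels was not tested.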

How the data were processed

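RNA from 24 libraries of KYSE450 cells was sequenced by standard Illumina protocols after TRIzol extraction, per the labels' protocols. The authors deposited 1 table of FPKM values per gene, per the file headers; GRCh38 is named in the submitters' processing notes, and no source used here gives the aligner or counter. Of 61274 rows, 23 were broken text without values and were left out, leaving 61251 genes. The FPKM values came out as whole reads for 41100 of the 41101 genes above 0 (99.998%, within 0.02 reads or a relative 5e-08), and 24359 implied lengths equalled the GENCODE 29 exon union. Library totals were 14947379 to 37989457 reads.

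The 13729 genes that averaged 1 FPKM or more in some group were fitted on log2(FPKM + 1) with limma 3.58.1 (mean-variance trend, two-sided, R 4.3.3), all 24 libraries and 4 group means in 1 fit, with Benjamini-Hochberg adjustment over all tested genes and a threshold of 0.05. For the keratin 6 sum, the FPKM of KRT6A, KRT6B and KRT6C were added before the fit. The fit was tested on simulated data. Descriptions were made with Python 3.11.15, numpy 2.4.6, pandas 2.3.3 and matplotlib 3.10.9. Intervals cover 95%. Groups were taken from the labels. The members and gene lists were chosen with earlier results of these data known. All 10 members are named. From each list, up to 4 called genes with the largest change per comparison may be named, if they averaged 1 FPKM or more in the higher group. The 3 highest pseudogenes and the 3 nearest genes per member may be named too. KLK6, BMP4, LYZ and AKR1C3 were named in the KRT19 description outside this rule. Alternatives were a pseudocount of 0.1, no filter, a filter of 5 FPKM, relative log expression factors, only the groups compared, a replicate block, limma-voom on the recovered reads, leaving out each library in turn, and leaving out parental DTP libraries 5 and 6. Replicate pairs differed beyond sampling noise, so no library was counted as a repeat of another.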

Additional observations from a re-analysis of the deposited data

Results flagged for a closer look

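In 4 of the 40 pairs of a keratin and a group, the highest library lay far from the others by Dixon's test at its 95% critical value, which chance alone would flag in about 1 of 20 groups. KRT5 was at 1413 FPKM in parental DTP library 6, where the next highest library was at 1169 FPKM. The other 3 were in chemoresistant DTP library 2: KRT13 at 233 FPKM (next 203), KRT14 at 50.4 FPKM (next 39.8) and KRT16 at 72.7 FPKM (next 50.4).

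The DTP change differed between the lines for 8 keratins by the direct test in limma, chemoresistant minus parental line on the log2 scale, where 63.8% of all tested genes were called (20.5% higher, 43.4% lower). The difference was 1.89 for KRT16, 1.71 for KRT6A, 1.55 for KRT6C, 1.31 for KRT6B, 1.05 for KRT17, 0.61 for KRT5, 0.57 for KRT14 and -0.91 for KRT15.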

How the results depend on the processing

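No called keratin changed direction under any alternative, and the numbers of keratins called stayed within 1.5 times those reported. With all 24 libraries, 65.5%, 48.0%, 77.5%, 61.9% and 63.8% of all tested genes were called in the 5 tests, in the order that follows. Leaving out each library in turn, 8 were called in parental DTP against parental, 4 to 5 in chemoresistant DTP against chemoresistant, 7 to 9 in chemoresistant against parental, 9 to 10 in chemoresistant DTP against parental DTP and 8 in the difference. The keratin 6 sum (KRT6A+KRT6B+KRT6C) then ran between -1.35 and -1.27, 0.37 and 0.44, -0.42 and -0.35, 1.28 and 1.37, and 1.67 and 1.76 in those comparisons, all called. Deviations of same-numbered libraries from their group means correlated at r from -0.53 to 0.51, over 0.1 in 16 of 36 pairs. Differently numbered libraries were not compared, so whether the numbers pair the libraries is not settled. A replicate block called 8, 4, 8, 9 and 8 keratins, and 8965, 6629, 10674, 8552 and 8819 of all 13729 tested genes. It lost KRT19 in chemoresistant against parental (1.04, adjusted p = 0.0503). With no filter, KRT19 (adjusted p = 0.0714) and KRT6C (0.0507) lost that call too. KRT19 passed in parental DTP against parental with a pseudocount of 0.1 (1.78, adjusted p = 0.0483) and in chemoresistant DTP against parental DTP by limma-voom (2.08, adjusted p = 0.0358), an alternative chosen after seeing the data in place of a planned count test that was not run because the deposited values are FPKM. KRT5 in chemoresistant DTP passed without parental DTP libraries 5 and 6 (0.12, adjusted p = 0.0337). The stricter filter left out KRT19. With only the groups compared, the difference needs all 4 groups and has no separate value. The cause of these changes was not tested. KRT19 levels in parental libraries rest on only 2 to 10 reads each.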
